A study of Mus musculus with 3 samples.

Results

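The regions described here are 2475 H3K9ac summits of mouse haematopoietic stem cells (HSCs) that lie far from any protein-coding gene and were called in every library of the series. They are referred to as distal shared summits, or members. The old HSC list held 108787 summits, of which 108721 were on chromosomes 1 to 19 and X. Of these, 23384 lay outside every protein-coding gene record of the mm10 build and over 10 kb from the nearest record end. A young HSC summit was within 500 bp of 4080 of them, an old HSC ABC summit within 500 bp of 5835, and both within 500 bp of 2491. The 16 that touched one of the 20 highest-scoring sites of any list were left out, which leaves 2475 of 108787 old HSC summits. Because the choice used sharing between the libraries, sharing itself is described and not tested. The members paired with 2452 distinct young HSC summits and 2454 distinct old HSC ABC summits, so a few close members share a partner.

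H3K9ac was profiled by CUT&Tag, in which an antibody directs a transposase to the marked chromatin so that the DNA around it is cut out and tagged. The cells were HSCs sorted from the bone marrow of wild-type mice, with 50000 HSCs per assay. The 3 libraries, 1 per group, are young HSC (2 to 4 months), old HSC (18 to 24 months) and old HSC ABC (18 to 24 months, where the labels do not spell out ABC). With 1 library per group there is no replicate check, and no test is given. How many animals went into a library is not stated in the labels. The names written inside the files disagree with the labels: the young HSC list carries the name oHSC-H3K9ac-1, the old HSC list oHSC-ABC-H3K9ac-1 and the old HSC ABC list oHSC-H3K9ac-2. Libraries are therefore called here by their labels, and no difference between them is read as an effect of age or of ABC.

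The young HSC list held 33248 summits, the old HSC list 108787 and the ABC list 45386, and the read depth behind them is unknown. Each summit has the authors' score, read as the −log10 of the q-value. A score depends on depth, so scores are given for each list, always in the order young HSC, old HSC, ABC where 3 values stand together, and are ranked within a list and not compared between lists. Of 8 HSC marker genes, 8, 7 and 7 had a summit in or within 1 kb of the record in the lists in that order, with Hoxb5 at 0 in both old lists. Markers of other blood cells were also present: 3, 5 and 3 of 6 granulocyte markers, 1, 3 and 1 of 4 B cell markers, 1, 3 and 3 of 4 T cell markers, 1, 2 and 2 of 4 erythroid markers and 2, 4 and 3 of 4 megakaryocyte markers had a summit. Of 4 stromal and endothelial markers, 2, 4 and 2 had one. The part of other cells in the summits was not tested.

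Acetylation of lysine 9 of histone H3 marks active promoters and is also found at active enhancers, the distal elements that raise transcription of a gene from afar. Acetylated sites far from protein-coding genes can be enhancers, starts of long non-coding RNA (lncRNA) genes, primary transcripts of microRNAs (miRNAs), or genes read by RNA polymerase III such as those of transfer RNAs. Well-studied blood genes including Runx1, Erg, Kit and Cxcr4 are controlled in part by such distal elements.

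The members at annotated lncRNA starts are the ones for which sequence can be shown, since promoter windows from RefSeq (GRCm38.p6, the assembly of mm10) run from 250 bases before to 50 bases after a start. The first 4 windows hold CCGGAAG or its reverse complement CTTCCGG, the extended binding motif of ETS factors, in capitals, and each is written 5′ to 3′ on the strand of its gene. They are Snhg20, the host of a small nucleolar RNA (chr11:117076533-117076832, plus strand), D730003I15Rik in the interval beside Atf3 (chr1:191224204-191224503, plus strand), Gm1976 (chr17:94834750-94835049, minus strand) and E430024I08Rik (chr13:74462920-74463219, minus strand).
Snhg20: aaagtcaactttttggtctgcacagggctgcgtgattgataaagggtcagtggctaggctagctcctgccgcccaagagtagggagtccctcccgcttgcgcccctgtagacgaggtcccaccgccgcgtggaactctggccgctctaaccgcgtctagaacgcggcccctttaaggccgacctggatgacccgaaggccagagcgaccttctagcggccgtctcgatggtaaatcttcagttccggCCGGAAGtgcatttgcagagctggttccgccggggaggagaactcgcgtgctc
D730003I15Rik: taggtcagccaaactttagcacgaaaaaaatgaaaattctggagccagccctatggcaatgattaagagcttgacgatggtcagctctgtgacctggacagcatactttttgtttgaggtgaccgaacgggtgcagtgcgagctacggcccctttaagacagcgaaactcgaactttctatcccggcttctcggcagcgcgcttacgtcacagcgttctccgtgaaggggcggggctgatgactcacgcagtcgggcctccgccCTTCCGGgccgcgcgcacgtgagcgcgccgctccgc
Gm1976: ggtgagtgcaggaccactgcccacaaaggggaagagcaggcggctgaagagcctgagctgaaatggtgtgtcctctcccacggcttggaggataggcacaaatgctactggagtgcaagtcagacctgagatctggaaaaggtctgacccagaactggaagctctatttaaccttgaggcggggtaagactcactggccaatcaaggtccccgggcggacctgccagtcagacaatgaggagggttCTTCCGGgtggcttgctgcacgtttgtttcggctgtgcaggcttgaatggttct
E430024I08Rik: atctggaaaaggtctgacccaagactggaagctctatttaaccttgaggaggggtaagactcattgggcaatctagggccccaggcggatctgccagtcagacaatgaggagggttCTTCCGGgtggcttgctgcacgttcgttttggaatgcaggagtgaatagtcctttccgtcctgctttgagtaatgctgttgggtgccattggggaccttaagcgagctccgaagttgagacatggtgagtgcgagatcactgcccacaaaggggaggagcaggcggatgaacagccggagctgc

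The next windows are examples with more and with fewer CpGs, both from the CpG-rich part of these starts, with each CpG in capitals. Snhg5, another snoRNA host gene (chr9:88522848-88523147, minus strand), had 36 CpGs. Its window shares a run of at least 25 bases with a distant start window. Malat1, an abundant nuclear lncRNA (chr19:5802623-5802922, minus strand), had 10.
Snhg5: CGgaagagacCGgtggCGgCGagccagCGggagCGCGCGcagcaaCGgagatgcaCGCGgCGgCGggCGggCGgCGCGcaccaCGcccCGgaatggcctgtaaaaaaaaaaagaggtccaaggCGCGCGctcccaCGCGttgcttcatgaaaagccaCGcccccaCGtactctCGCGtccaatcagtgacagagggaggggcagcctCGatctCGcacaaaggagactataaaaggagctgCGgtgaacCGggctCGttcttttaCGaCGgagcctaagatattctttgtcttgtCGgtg
Malat1: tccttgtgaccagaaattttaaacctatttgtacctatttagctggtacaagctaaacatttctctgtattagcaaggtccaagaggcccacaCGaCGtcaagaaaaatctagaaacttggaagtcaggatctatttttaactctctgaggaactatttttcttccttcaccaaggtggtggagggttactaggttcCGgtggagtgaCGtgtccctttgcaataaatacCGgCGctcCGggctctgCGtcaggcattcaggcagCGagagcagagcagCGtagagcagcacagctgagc

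Only 4 members lay inside or within 1 kb of a miRNA record, but several were within 50 kb of miRNA hairpins, whose mature sequences from RefSeq are grouped here by their seed, bases 2 to 8, in capitals. The let-7 group, which has the seed GAGGUAG, was represented at 4 places.
let-7a-5p: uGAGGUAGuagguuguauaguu
let-7b-5p: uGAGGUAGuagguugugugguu
let-7c-5p: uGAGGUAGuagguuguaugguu
let-7d-5p: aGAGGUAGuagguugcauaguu
let-7f-5p: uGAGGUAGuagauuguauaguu
The next 6 come from the miR-17 to miR-92 cluster, where miR-17 shares its seed with miR-20a and miR-19a with miR-19b.
miR-17-5p: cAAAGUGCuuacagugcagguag
miR-20a-5p: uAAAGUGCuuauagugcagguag
miR-18a-5p: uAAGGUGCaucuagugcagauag
miR-19a-3p: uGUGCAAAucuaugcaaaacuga
miR-19b-3p: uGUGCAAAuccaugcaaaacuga
miR-92a-3p: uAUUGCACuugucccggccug
The seed ACCCGUA joins miR-99a and miR-100, which lie on different chromosomes, each beside a let-7 gene, and the seed AGCAGCA joins miR-16 and miR-322.
miR-99a-5p: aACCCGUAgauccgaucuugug
miR-100-5p: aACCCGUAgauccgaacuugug
miR-16-5p: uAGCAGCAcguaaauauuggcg
miR-322-5p: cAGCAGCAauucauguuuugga
Finally, miR-146a, known as a brake on inflammatory signalling in HSCs, has the seed GAGAACU.
miR-146a-5p: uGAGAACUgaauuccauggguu

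Distal shared summits lay in the stronger part of the old HSC list and nearer the middle of the other lists as deposited. Their median score was 4.74 in young HSC, 9.70 in old HSC and 5.27 in old HSC ABC, at the 45.5th, 15.8th and 33.5th percentile of the list, where 0 is the strongest. The old HSC list is the longest, and with each list limited to its 33248 highest-scoring summits the rule gave 1726 members, with median percentiles of 36.7, 38.1 and 33.5. Shared summits within 1 kb of the end of a protein-coding record stood higher, with median scores of 10.6, 27.8 and 9.44 and median percentiles of 16.8, 4.68 and 13.4. Shared summits elsewhere inside gene records lay close to the members, with medians of 5.03, 10.4 and 5.23. The 20893 distal summits of old HSC that were not shared had a median score of 3.60. These values describe what sharing selects. Over the 2475 members the ranks in the lists went together, with Spearman's rho of 0.587 between young HSC and old HSC, 0.605 between old HSC and old HSC ABC and 0.538 between young HSC and old HSC ABC. The points share the genome's mappability and the choice of members, so these are descriptions. A set of 127 members was in the top 10 percent of members in all 3 lists.

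**Figure D1:**
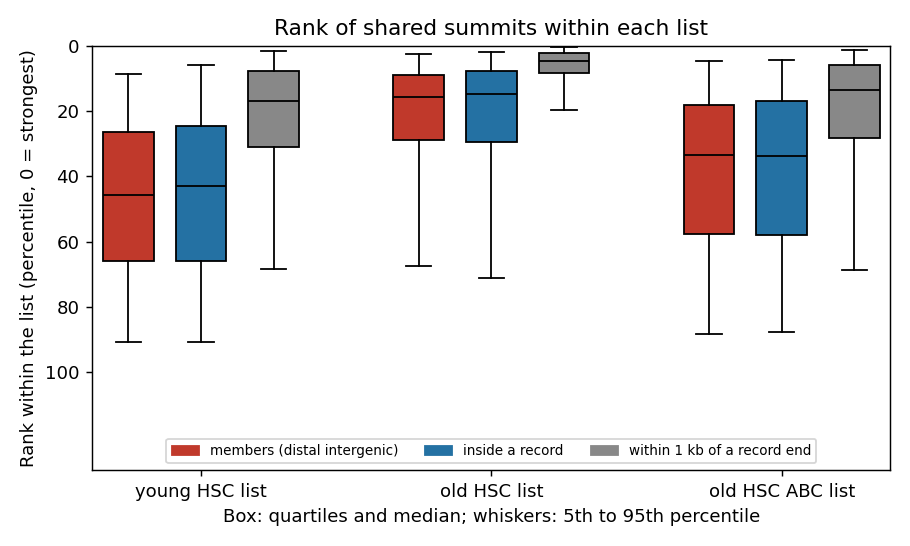
Rank within each list (percentile of that list, 0 the strongest, so higher on the plot is stronger) of summits shared by all libraries, for distal shared summits, summits inside a protein-coding record and summits within 1 kb of a record end. Boxes are quartiles with the median and whiskers reach the 5th and 95th percentile. In each list the members and the summits inside records lie at similar ranks and the record-end summits higher, with medians at 16.8, 4.68 and 13.4 against 45.5, 15.8 and 33.5 for the members in lists of unequal length.

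Among old HSC distal intergenic summits, 10.7 percent (2491 of 23384, exact 95% Clopper-Pearson interval 10.3 to 11.1, counting error only) were shared, against 16.1 percent of all old HSC summits. The share depends on the length of the lists, and was 30.8% with lists of equal length. The share was 46.8% for summits within 1 kb of a record end, 11.8% inside records and 10.8% in the flank between. Within a range of old HSC score the classes differed little. From 5 to 10 the share was 14.8% for distal summits, 15.2% inside records and 14.8% at record ends. From 20 to 40 it was 85.2%, 84.5% and 86.6%, and above 40 it was 94.2%, 92.7% and 93.9%. In the range from 10 to 20, record-end summits were shared in 57.1% (55.2 to 59.0) and distal summits in 51.1% (48.5 to 53.6). The rule used the sharing, and nothing is read from it here.

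**Figure D2:**
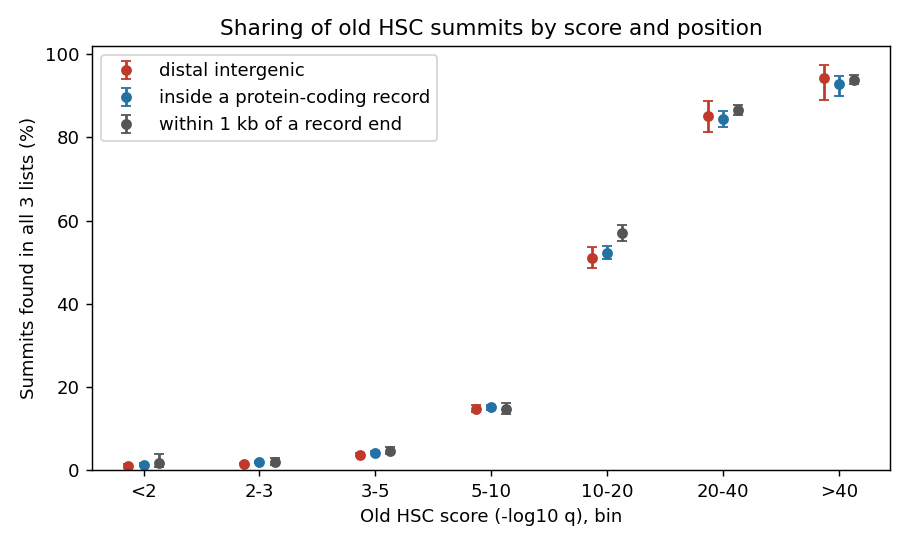
Percent of old HSC summits with a partner in both other lists (vertical axis) by bin of the old HSC score (horizontal axis) for 3 positions relative to protein-coding gene records. Points are shares and bars exact 95% intervals that cover counting error only. The 3 positions follow one course, from under 2% below a score of 2 to over 92% above 40.

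The summits of different lists fell close together. The median distance was 91 bp between the young HSC and old HSC summits, 82 bp between old HSC ABC and old HSC, and 97 bp between young HSC and old HSC ABC. For each limit a summit on either side is given as an example, and the summits near the limits were not compared as sets. A member 15007 bp from Plb1 had its farther partner at exactly 500 bp and scored 3.73, 5.90 and 3.55, and a summit 38.5 kb from LOC115488002 was left out with a partner just beyond 500 bp and scores of 5.46, 9.66 and 3.28. At the other limit, a member 10027 bp from Alox12, an arachidonate lipoxygenase gene, scored 4.03, 19.3 and 6.81, and a shared summit 9992 bp from Ttf2 scored 7.07, 9.34 and 6.77.

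A small part of the members lay beside sites that scored highest in the files. Within 500 kb of a top-20 site of any list, or in the first 5 Mb of a chromosome, were 90 members (3.64%), but these were 12 of the 20 members with the best ranks. An example lies at chr17:13306090, inside the lncRNA record Gm36684, with scores of 181, 256 and 174. The part of such places in the ranks was not tested. The non-coding share, the cluster share, the median distance and the count of nearest genes each stayed within the limits set for an unchanged value when these 90 were left out, an alternative chosen after seeing the data.

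The other 8 of the 20 best-ranked members were spread over 6 chromosomes. The member at chr15:75086883, 21.3 kb from Ly6c2, scored 108 in young HSC, 152 in old HSC and 113 in old HSC ABC. The Ly6 genes are a family of similar surface proteins, and reads from similar copies could be split or pooled there. The member at chr1:69456782 lay 74.4 kb from Ikzf2, which encodes the zinc-finger factor Helios, and scored 53.96, 89.9 and 64.4. It ranked 67th of 33248 summits in young HSC. The member at chr12:52603581, 31.6 kb from Arhgap5, scored 67.9, 149 and 44.7, and lay beside an snRNA record. The member at chr8:83756833, 15.5 kb from Adgre5, the adhesion receptor CD97 of blood cells, scored 46.8, 89.8 and 48.1. A member 14985 bp from Pecr scored 51.4, 82.9 and 38.5. It lay 194 bp downstream of the start of the lncRNA D230017M19Rik and beside an snRNA record. The member at chr2:18608737, 63.7 kb upstream of Commd3, scored 43.8, 73.1 and 33.2. The remaining best-ranked members lay 682 kb from Gm40892 (44.5, 107 and 45.5) and 63.6 kb from Adgrl2, a latrophilin receptor (42.01, 118 and 43.6).

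The members lay at much the same distances from protein-coding genes as other distal summits. The median distance to the nearest record was 34.2 kb for members and 37.6 kb for the 20893 distal summits of old HSC that were not shared. Beyond 50 kb lay 37.8% (35.9 to 39.7) of members and 40.2% (39.6 to 40.9) of the others, intervals that touch, and beyond 100 kb lay 442 members (17.9%). Where the nearest gene has a strand in the reference, 55.1% (52.8 to 57.3) of members lay on its upstream side, against 54.4% of the others. The member farthest from any record, at chr1:101902405, was 1412 kb from Cntnap5b and scored 13.01, 24.61 and 4.596. Next came a member 1326 kb from Zeb2, a repressor needed for blood cell maturation, which scored 5.46, 13.4 and 6.81.

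Most members stood alone. When neighbours up to 12465 bp apart were joined and those 12634 bp apart or more were not, the 2475 members formed 2240 sites, of which 2032 were single summits (82.1% of members) and 184 were pairs. Only 24 sites had 3 or more members, with 75 members in all (3.03%, 2.39 to 3.78). This share moved with the joining distance, being 0.485% at 5 kb and 8.77% at 25 kb, and with the sharing window, being 1.35% at 250 bp and 6.39% at 1 kb. Of the 24 sites, 4 lay beside top-20 sites or in the first 5 Mb. Around a member the young HSC list placed 2 or more summits within 5 kb in 15.1%, the old HSC list in 40.8% and the old HSC ABC list in 20.7%. With each list limited to its 33248 highest-scoring summits the order changed, and the shares were 15.1%, 9.78% and 12.9%.

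The largest cluster held 6 members over 35.3 kb at chr15:85634937-85670194, in the gap between Wnt7b, a Wnt ligand, and Ppara, a fatty acid sensing nuclear receptor. Its first member lay 341 bp downstream of the start of the lncRNA D130051D11Rik and scored 5.76 in young HSC, 21.4 in old HSC and 7.32 in old HSC ABC. The member at chr15:85653957 scored 15.7, 62.03 and 15.6, and its summit was at the same base in all 3 lists. The member at chr15:85657678 scored 16.2, 26.7 and 22.4. Thus the highest summit of the cluster was a different one in old HSC than in the other lists. The last member was 36.5 kb upstream of the let-7c-2 hairpin and 37.2 kb upstream of the let-7b hairpin shown above.

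**Figure D3:**
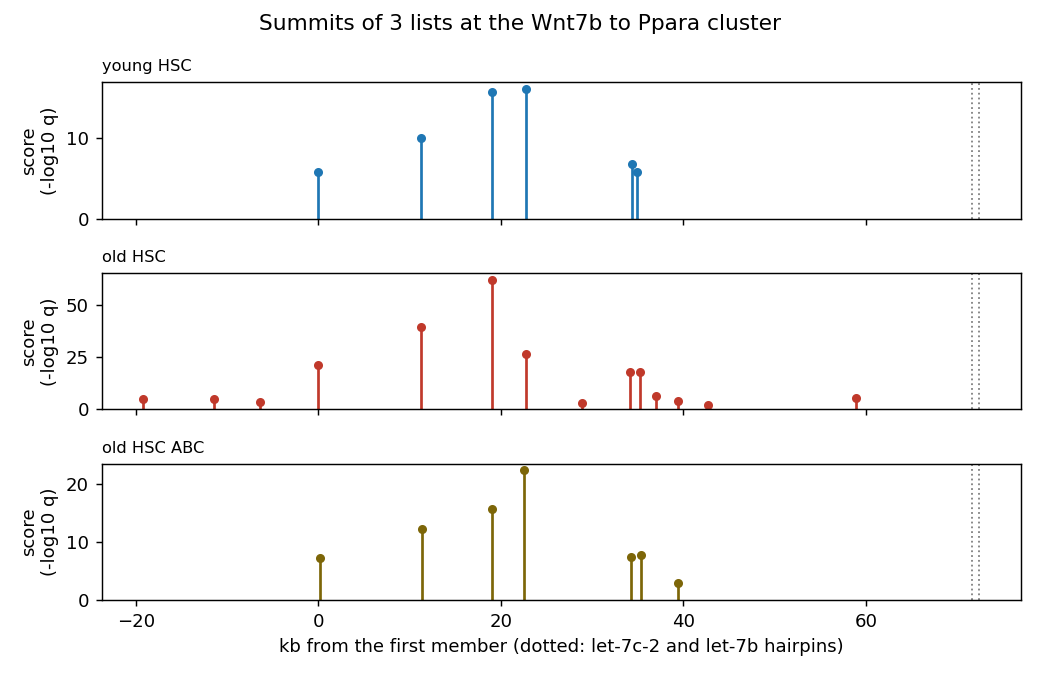
Summits of each list (vertical lines, height is the score as −log10 q, with a scale of its own for each list) in the interval between Wnt7b and Ppara, by distance in kb from the first member. Dotted lines mark the let-7c-2 and let-7b hairpins. Each of the 6 members has a summit in every list, and the other old HSC summits drawn, the highest at 6.61, are lower than the 6.

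Other clusters had 3 members each, and of those named here all but Malat1 and Ly86 were chosen after their values were seen. At Malat1 the member at its start scored 13.3, 56.1 and 5.78, and a member farther inside the record scored 23.8, 31.2 and 13.1. At Lncpint, a p53-induced lncRNA, the best member scored 10.8, 42.5 and 13.6. Near Ly86, which encodes the surface protein MD-1 that binds the Toll-like receptor homologue RP105, the best member scored 19.5, 18.7 and 8.63. Near Smad6, an inhibitor of BMP signalling, the cluster 56.3 to 72.9 kb away had a best member with scores of 7.37, 9.22 and 6.80. A cluster 14.3 to 37.4 kb from Fth1, the ferritin heavy chain that stores iron, had scores of 4.42, 21.6 and 7.48 at its best-ranked member. Between Klrb1 and Klrb1c, natural killer receptor genes, the middle member scored 6.48, 32.2 and 10.3.

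Members lay beside non-coding genes more often than other distal summits did. Inside or within 1 kb of a non-coding record were 887 members (35.8%, 33.9 to 37.8), against 27.5 percent of the distal summits that were not shared. For lncRNA records the shares were 29.6% and 23.7%, for transfer RNA (tRNA) records 0.929% and 0.182%, and for V segments of antigen receptor loci 1.41% and 0.287%. Pseudogenes did not follow this, with 2.06% and 2.11%. Small nuclear RNA records were near 9 members (0.364%) and 0.0526% of the others. Members also scored higher than the others, with median old HSC scores of 9.70 and 3.60. The share of members beside any non-coding record was 41.4% with a score of at least 5 in all lists. With a score of at least 10 it was 46.9%. Members and others were not compared at equal score, so the part of score in these differences was not tested.

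The tRNA genes, transcribed by RNA polymerase III, had members at 33 of 207 distal tRNA records (15.9%, 11.2 to 21.7). The 23 members at these records had median scores of 8.81, 22.3 and 8.22. Their scores ranged from 4.03 to 20.8 in young HSC, from 11.03 to 61.6 in old HSC and from 2.33 to 24.6 in old HSC ABC. The highest old HSC score was that of a member beside the glutamic acid tRNA record n-TEttc7, which scored 19.7, 61.6 and 24.6. Another polymerase III gene with a member was Rny3, a Y RNA, where it scored 30.3, 50.8 and 22.4. Among RNAs transcribed by polymerase II, Rnu5g, a small nuclear RNA of the spliceosome, had a member 2 bp away with 15.6, 31.0 and 18.7. Norad, a lncRNA that guards genome stability, held a member with 16.1, 37.8 and 16.6, and Mir670hg, a miRNA host gene, one with 19.2, 68.6 and 20.98. A member on Terc, chosen after its values were seen, the RNA of telomerase, scored 15.2, 29.1 and 8.48.

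Antigen receptor loci held 42 members, of which 35 were at the immunoglobulin heavy chain locus (Igh, chr12:113258768-116009954). These 35 had median scores of 6.21, 15.8 and 7.60, and 29 of them lay at V segments. The Igh V segments are a family of similar copies. The 35 members held 26 distinct old HSC scores, but equal scores were not limited to Igh. An old HSC score of 15.8437 was found at an Igh member and also at the best-ranked member of Jun. How often members elsewhere had equal scores was not counted, and the part of similar copies was not tested. The T cell receptor alpha locus had 5 members and the beta locus 2, and 0 lay in the kappa and lambda light chain loci and the T cell receptor gamma locus. Old HSC distal summits that were not shared numbered 68 at Igh, 44 at T cell receptor alpha and 13 at beta. They numbered 6 at kappa, 3 at T cell receptor gamma and 0 at lambda, so the counts of 0 members rest on few summits. Of all old HSC distal intergenic summits, 10.7% were shared. B cell markers had 4, 18 and 5 summits in the lists in turn and T cell markers 1, 10 and 3. The HSC markers had 15, 50 and 22, and every marker type had the most in the longer old HSC list. The part of lymphoid cells in these members was not tested.

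The starts of lncRNA genes were examined on 5521 start windows over 10 kb from protein-coding records, without chromosome 18, for which no windows were used here (94 members). A member lay within 500 bp of 138 windows (2.50%, 2.10 to 2.95) of 137 genes, and 130 members (5.25%) were at such a start. At these starts the young HSC summit lay a median of 95 bp downstream of the start, the old HSC summit 47 bp and the old HSC ABC summit 71.5 bp. The summit was on the downstream side at 65.2%, 60.9% and 60.9% of the starts. Over the 138 windows the median scores of the member were 5.69, 16.1 and 6.81.

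**Figure D4:**
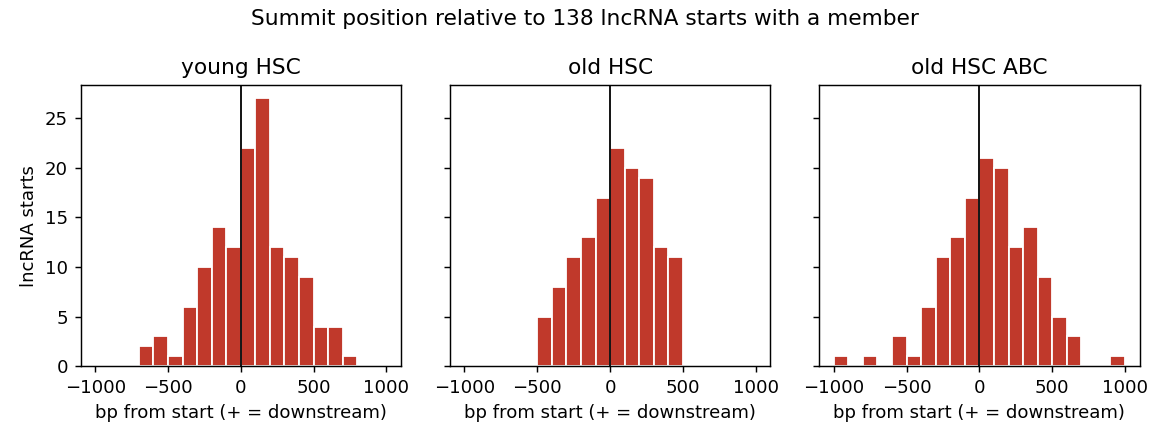
Number of lncRNA starts (vertical axis, bins of 100 bp) by the position of the nearest summit of each list relative to the start (horizontal axis, bp, positive is in the direction of transcription), for the 138 start windows with a member within 500 bp. In all 3 lists more summits lie downstream than upstream, with medians of 95, 47 and 71.5 bp.

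Known lncRNA genes with a member at the start included host genes of small nucleolar RNAs. Apart from Snhg17 and Dancr, the genes of this paragraph were chosen after their values were seen. Snhg17 had a member 189 bp downstream of its start that scored 21.1, 57.3 and 14.7. Dancr, which holds a small nucleolar RNA and is known as a brake on differentiation, had one at 221 bp with scores of 13.8, 52.4 and 15.8. Snhg20 scored 8.98, 32.2 and 8.38 and Snhg5 scored 13.3, 33.4 and 6.90. Mir99ahg, the host transcript of miR-99a, let-7c-1 and miR-125b-2, had a member 24 bp upstream of its start with scores of 12.8, 45.97 and 10.6. Jpx, an activator of Xist at the X inactivation centre, scored 14.3, 33.95 and 6.67, and Firre, an X-linked lncRNA that organises nuclear architecture, scored 9.20, 17.7 and 6.85. At the low end, Chaer1 scored 2.27, 3.25 and 1.85.

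The start windows with a member were richer in CpG than those with no summit near. The median GC content was 54.0% in the 138 windows and 44.7% in the 3248 windows with no summit of any list within 5 kb. A CpG ratio (observed over expected from base content) above 0.6 was found in 24.6% (17.7 to 32.7) against 3.76% (3.13 to 4.47), and in 36.0% of all 32619 promoter windows. The 34 windows above 0.6 had median scores of 9.80, 28.6 and 7.55 and the other 104 had 4.63, 13.7 and 6.06. Snhg5 had a ratio of 1.26 and Malat1 one of 0.604, where the median of the 138 windows was 0.416.

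Motifs were searched as letters on both strands of the 300 bases. CCGGAAG, chosen after the first values had been seen, was in 17 of the 138 windows (12.3%, 7.34 to 18.99), in 1.85% (1.41 to 2.37) of the 3248 windows with no summit near, and in 8.92% of all promoter windows. It contains a CpG. Among windows with a CpG ratio above 0.6 it was in 23.5% (10.7 to 41.2) of those with a member, in 5.74% (2.34 to 11.5) of those with no summit near and in 18.7% of all promoter windows. Among windows at or under 0.6 it was in 8.65%, 1.70% and 3.41%. The short ETS core GGAA, which is inside CCGGAAG, was in 97.1% and 96.6% of the windows with a member and with no summit near. The GATA core GATAA was in 28.3% (20.9 to 36.5) and 38.5%, the RUNX core TGTGGT in 21.0% and 19.6%, the AP-1 motif TGANTCA in 10.9% and 11.4%, and the E-box CANNTG in 76.1% and 80.4%. A match is a run of letters and does not show binding. In windows of 100 bases CCGGAAG was in 4.35% of those with a member and 0.831% of those with no summit near. It was in 4.55% of all promoter windows of that size.

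Of the 17 windows with CCGGAAG, those of Gm1976 and E430024I08Rik share a run of 50 bases although they are on different chromosomes, as the printed sequences show. The member at Gm1976 scored 19.4, 72.8 and 23.4 and the one at E430024I08Rik 16.5, 39.3 and 20.01, and reads in the shared run could come from either. To see how common this was, windows that share a run of 25 bases with a start window over 1 Mb away or on another chromosome were counted. They were 13 of 138 windows with a member (9.42%) and 19.2% of the 3248 with no summit near. Without them CCGGAAG was in 11.2% (14 of 125) and 1.49%, and a CpG ratio above 0.6 in 25.6% and 2.70%.

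The miRNA genes were near members about as often as the starts of lncRNA genes were. Of 248 miRNA hairpins over 10 kb from protein-coding records, 14.1% (10.03 to 19.1) had a member within 10 kb of their midpoint, against 11.3% (10.5 to 12.1) of the lncRNA starts. Within 50 kb it was 24.2% against 27.6%. The 60 hairpins with a member within 50 kb were near 38 distinct members. Joining hairpins of one strand up to 10 kb apart gave 39 such sites, and at 28 of them (71.8%, 55.1 to 85.0) the nearest member was upstream. For distal summits that were not shared, the nearest was upstream at 54 of 90 sites (60%, 49.1 to 70.2), and the intervals overlap.

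Members lay beside several miRNAs studied in HSCs, which were chosen from the 60 hairpins after their values were seen. Upstream of the miR-17 to miR-92 cluster, which promotes growth of blood progenitors, a member 1303 bp from the middle of the Mir17 hairpin scored 4.66 in young HSC, 20.6 in old HSC and 5.63 in old HSC ABC. Upstream of let-7a-1, let-7f-1 and let-7d a member at 7516 bp from let-7a-1 scored 13.9, 18.1 and 4.91. The Mir146 hairpin had a member 10955 bp upstream, with scores of 14.4, 40.9 and 5.31. Mir100 and let-7a-2 shared a member 5492 bp upstream of Mir100, which scored 3.86, 8.19 and 3.63. Mir16-1 lies in Dleu2, a lncRNA gene lost in chronic lymphocytic leukaemia, and the nearest member was 15.7 kb upstream of it with scores of 26.4, 44.4 and 19.9. On the X chromosome, Mir322 had a member 2580 bp upstream with scores of 2.65, 6.72 and 3.28.

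Several lists of blood cell genes held a larger share of genes nearest to a member than all genes did. So did stroma and endothelium genes, with 25%, while megakaryocyte and erythroid genes had 0. Of all 21631 protein-coding genes, 8.18 percent (1770) were the nearest record of at least 1 member. The share depends on how much intergenic space a gene faces, so members per Mb of that space (sequence over 10 kb from any record and nearest to the gene) are given beside it, with 1.88 members per Mb for all genes. The distal summits of old HSC that were not shared had 15.8 per Mb for all genes. They were denser beside myeloid genes (56.7), receptors (50.9), megakaryocyte and erythroid genes (37.8) and immediate early genes (34.4). Ferroptosis and sphingolipid genes had 22.6 per Mb, stroma and endothelium genes 20.8 and HSC transcription factors 20.7. Lymphoid genes had 11.7 and control genes of other tissues 2.60. The lists were chosen with earlier results known, and their counts are descriptions.

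**Figure D5:**
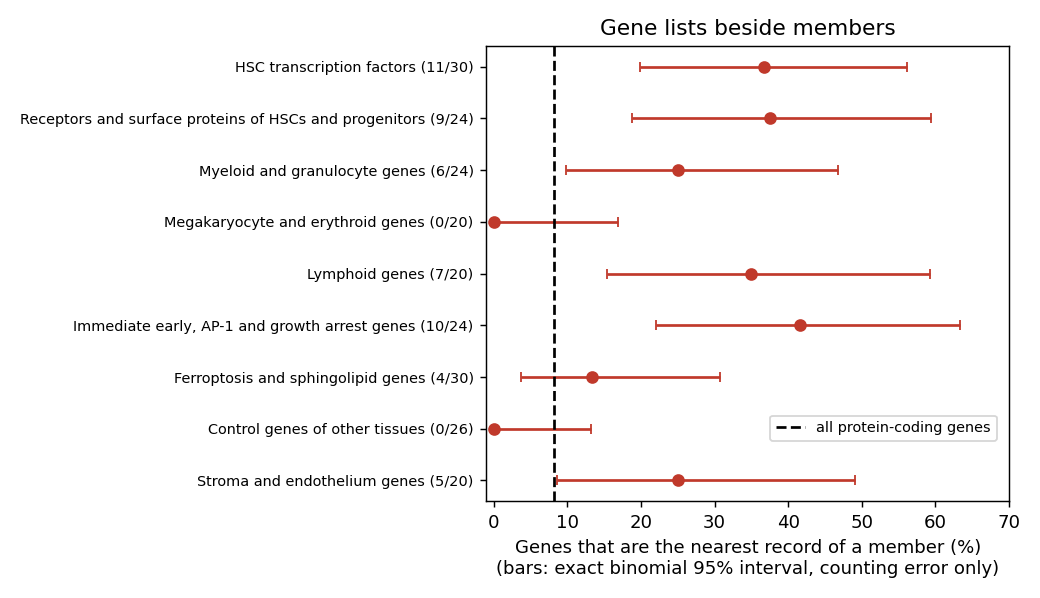
Percent of the genes of each list that are the nearest protein-coding record of a member (horizontal axis), with the number of genes in brackets and exact 95% intervals that cover counting error only. The dashed line is the share over all protein-coding genes, 8.18%. Immediate early genes reach 41.7%, and myeloid genes and stroma and endothelium genes each have 25%. Megakaryocyte and erythroid genes and control genes of other tissues have 0.

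Of 30 HSC transcription factor genes, 11 (36.7%) were nearest to a member, with 3.12 members per Mb. Zeb2 was among the 11 only through the member 1326 kb away given above. The best-ranked was the Ikzf2 member given above. Sox4, a factor of early progenitors, had a member 64.6 kb downstream with scores of 10.8, 27.9 and 11.4. Zfp36l2 is in the list but encodes an RNA-binding protein that destabilises transcripts, not a transcription factor. It was the nearest gene of 8 of the list's 28 members, so the density of the list rests in part on it. The best-ranked Zfp36l2 member, 155 kb away, scored 7.24, 18.8 and 5.82. Etv6, an ETS factor needed for HSC survival, had one 63.0 kb downstream with 12.7, 20.5 and 5.31.

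Of 24 receptor and surface protein genes, 9 (37.5%) were nearest to a member, or 8 without the 90 members near top-20 sites or chromosome starts, and they had 10.5 members per Mb. Cd47, whose protein shields cells from phagocytosis, had a member 118 kb downstream with scores of 32.4, 63.9 and 29.6. Cd34, a surface protein of progenitors, had 2 members. The one at chr1:194879814, 59.0 kb upstream, scored 8.85, 33.7 and 6.73. Kit, the stem cell factor receptor, had one 34.9 kb upstream with 7.19, 10.5 and 5.67, and Itga4, an integrin of HSC homing, had one 147 kb upstream with 6.99, 15.03 and 5.31.

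Of 24 myeloid and granulocyte genes, 6 (25%) were nearest to a member, with 7.87 members per Mb. Cebpb, a factor of emergency granulopoiesis, had a best-ranked member 69.7 kb downstream with scores of 7.20, 21.1 and 8.12. Klf4 had one 581 kb upstream with 14.9, 26.5 and 15.6. Trib1 had one 23.6 kb away with 6.41, 18.95 and 8.88, and Fcgr3, an antibody receptor, one 12.3 kb upstream with 6.21, 42.8 and 11.9. Of 20 lymphoid genes, 7 (35%) were nearest to a member, with 2.66 per Mb. Ets1 (10.5, 24.2 and 9.36 at its best-ranked member), Foxo1 (6.99, 18.4 and 6.04), Gata3 (6.99, 17.95 and 11.8) and Ikzf1 (6.337, 10.001 and 8.753) were among them.

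Of 24 immediate early, AP-1 and growth arrest genes, 10 (41.7%) were nearest to a member, with 5.33 members per Mb. Cd69, an early activation marker that retains lymphocytes in tissue, had a member 29.3 kb away with scores of 23.4, 54.5 and 16.1. This Cd69 member lay 25 bp upstream of the start of the lncRNA 2310001H17Rik. Jun had a member 251 kb upstream with 8.61, 15.8 and 10.1. Atf3, a stress-induced factor, had one 41.5 kb upstream with 5.89, 41.3 and 6.99, which is the member 355 bp downstream of the D730003I15Rik start whose window is printed above. Pim1, a survival kinase, had one 53.4 kb upstream with 5.09, 16 and 6.45.

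Ferroptosis and sphingolipid genes, the subject of the study's title, had 4 of 30 nearest to a member (13.3%, 3.76 to 30.7), an interval that includes the 8.18% of all genes, with 4.39 members per Mb. They were Fth1, described above, Cers6, a ceramide synthase (35.6 kb upstream, with 7.08, 23.6 and 5.12), Alox12, and Nfe2l2, the antioxidant response factor NRF2 (26.9 kb upstream, with 2.09, 6.47 and 3.28). Of 20 stroma and endothelium genes, 5 (25%) were nearest to a member, with 1.68 per Mb. Among these, Dcn, a matrix proteoglycan, scored 7.46, 22.1 and 2.98, and Runx2, a factor of bone formation, scored 6.90, 5.05 and 5.79. Megakaryocyte and erythroid genes had 0 of 20 (up to 16.8%), but they face only 0.476 Mb of distal space, and 18 distal summits of old HSC that were not shared lay nearest to them. Control genes of other tissues had 0 of 26 (up to 13.2%) over 1.92 Mb, with 5 such summits. At these sizes a lower density than that of all genes was not detectable for the megakaryocyte and erythroid list.

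Of 28 genes with known distal blood enhancers or of interest in stress, 18 (64.3%) had a member within 200 kb of the record, where 33.5 percent of all protein-coding genes had one. The list was chosen for genes with distal elements and with earlier results known, so the count is a description. Irf8, a factor of monocyte and dendritic cell fate, had 5 members, and the best-ranked, 118 kb downstream, scored 4.39, 8.26 and 7.63. Erg, an ETS factor of HSC maintenance, had 4, and the best-ranked, 65.8 kb upstream, scored 7.33, 9.76 and 4.11. Cxcr4, the receptor that holds HSCs in the marrow, had 4, of which the one at chr1:128548685, 39.5 kb downstream, scored 5.42, 15.7 and 4.17. Runx1, a master factor of blood formation, had 3, and the best-ranked, 115 kb downstream, scored 4.02, 4.47 and 6.39. The nearest protein-coding record of this Runx1 member was Clic6, and that of the Erg member 65.8 kb upstream was Ets2. In old HSC these members of Irf8, Erg, Cxcr4 and Runx1 ranked 20860th, 17075th, 10308th and 47830th of 108787 summits. Within 200 kb of the record, old HSC had 24 distal summits at Irf8, 23 at Erg, 17 at Cxcr4 and 14 at Runx1. Of all old HSC distal intergenic summits, 10.7% were shared.

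Hhex, a homeobox factor of progenitors, had 2 members within 200 kb, and the better-ranked, 82.9 kb downstream, scored 7.77, 18.4 and 9.63. Id2, an inhibitor of E-box factors, had 2, of which the one 144 kb upstream scored 5.66, 16.7 and 9.24. Csf1, the macrophage growth factor, had 2, of which the one 72.5 kb upstream scored 5.84, 10.4 and 6.10. Single members lay at Cebpa, the granulocyte factor (38.1 kb upstream, with 8.34, 9.95 and 2.35), Fli1, an ETS factor (53.6 kb away, with 3.35, 6.20 and 5.31), and Socs3, a brake on cytokine signalling (63.4 kb downstream, with 3.49, 5.43 and 7.32). In contrast, 0 members were found within 200 kb of Gata2, Spi1, Lmo2, Tal1, Gfi1, Gfi1b, Meis1, Mecom, Zeb2 and Bcl2. Within the same distance old HSC had 12 distal summits at Gata2, 12 at Lmo2, 10 at Tal1 and 0 at Spi1. At the loci with members named in this paragraph it had 20 at Id2, 19 at Csf1, 14 at Cebpa, 12 at Fli1, 10 at Hhex and 9 at Socs3. A summit inside a gene record or within 10 kb of one is not a member by the rule, so elements there are not described. The members given here for Hhex, Csf1, Cebpa, Fli1 and Socs3 had another gene as their nearest record. These were Exoc6, Eps8l3, Gm45095, Ets1 and Tha1 in turn.

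Ranks among the members differed between lists for a few. Of the members in the top 10 percent in old HSC, 9 were in the lower 50% in young HSC, and of those in the top 10 percent in young HSC, 8 were in the lower 50% in old HSC. A member 28.4 kb from Tmprss2, inside the transcribed pseudogene record Mx2, was an example of the first, with scores of 2.87 in young HSC, 42.4 in old HSC and 8.96 in old HSC ABC. Between old HSC and old HSC ABC the numbers were 7 and 5. A member 19.5 kb upstream of Apln, the gene of the peptide apelin, was one of the 7, with 6.51, 38.2 and 2.91. A member 32.3 kb upstream of Apba2 was one of the 5, with 9.46, 4.47 and 12.8. With 1 library per group, the groups cannot be told apart from the libraries, and these members were chosen after their values were seen.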

How the data were processed

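H3K9ac CUT&Tag was done on 3 libraries, 1 per group. The authors deposited 1 list of summits per library, 1 bp each with a score that is read here as the −log10 of the q-value, since every list starts just above 1.3. The submitters' processing notes name BWA, Picard, MACS2, edgeR and mm10, without versions or roles. Read depth, filters and the calling settings do not appear in the labels.

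Summits were placed against RefSeq gene records of GRCm38.p6, the assembly of mm10, with 21631 protein-coding and 27923 non-coding records. The 217 genes of 9 lists and the 28 loci were matched by symbol. Intervals are exact Clopper-Pearson intervals at 95% and cover counting error only. Calculations used Python 3.11.15, pandas 2.3.3, numpy 2.4.6, SciPy 1.17.1 and matplotlib 3.10.9, and the selection and clustering code was tested on simulated data. No test between groups was made.

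The members and lists were chosen with earlier results of these data known. Genes and members were named by rule: the 20 best by their worst rank over the lists, the largest clusters, the best-ranked member per listed locus, up to 4 genes per list, the 5 farthest members, the best-ranked at named non-coding records and those at the limits. Others are marked in the text as chosen later. Alternatives changed the sharing window, distance, score minimum, list length, record types, top sites and windows. Start windows of chromosome 18 were not used here.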

Additional observations from a re-analysis of the deposited data

Results flagged for a closer look

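Summits were also called on sequences outside the chromosomes described above, and these stood out because the signal lies in data that the comparisons do not use. The series has no control library, so the counts are set against 3, the limit that a count of 0 allows. That limit is not a measured background for these sequences, so a count above it does not show H3K9ac there. The origin of these summits was not tested. The unplaced sequence JH584304 held 20 summits in young HSC, 31 in old HSC and 28 in old HSC ABC. The mitochondrial genome held 8 summits in young HSC, 8 in old HSC and 8 in old HSC ABC. The highest score on the mitochondrial genome was 73.7 in young HSC, 156.9 in old HSC and 78.8 in old HSC ABC.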

How the results depend on the processing

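Of 128 alternatives, 78 left a value within its limits, 50 moved it and 0 reversed it. The number of members was 935 over 50 kb from a record, 831 and 228 with a score of at least 5 and 10 in all lists, and 1082 with records of every type. The shared part of distal summits was 8.27% within 250 bp, 12.45% within 1 kb, 10.1% over 50 kb, 12.02% with a score of at least 10, 30.8% with equal-length lists and 9.42% with records of every type. The part of members in clusters was 1.35% and 6.39% with sharing windows of 250 bp and 1 kb, 2.36% over 20 kb, 3.95% with a score of at least 10, 2.09% with equal-length lists, 2.03% with records of every type, and 0.485% and 8.77% with joining distances of 5 and 25 kb. The part beside non-coding records was 41.4% and 46.9% with scores of at least 5 and 10, 33.4% and 46.1% with windows of 500 bp and 5 kb, and 0 with records of every type, which leaves such members out by construction. The median distance was 25.6, 52.96 and 97.2 kb with minimums of 5, 20 and 50 kb, and 19.3 kb with records of every type. With equal-length lists the median percentile was 36.7 in young HSC and 38.1 in old HSC, and members with 2 or more summits within 5 kb were 9.78% in old HSC and 12.9% in old HSC ABC. With a window of 10 kb the latter shares were 29.8%, 69.6% and 38.5% in the lists in turn. With a score of at least 5, the genes nearest to a member were 686 in all, 5 HSC transcription factors, 5 receptors, 4 lymphoid, 4 immediate early, 1 ferroptosis and sphingolipid and 1 stroma gene. Equal-length lists left 2 stroma genes. Either flanking record within 200 kb gave 1 megakaryocyte and erythroid gene and 2 control genes. In windows of 100 bases with a member GGAA was in 73.9%, GATAA in 11.6%, TGTGGT in 8.70%, TGANTCA in 2.17%, CANNTG in 31.2% and CCGGAAG in 4.35%. In those with no summit near the shares were 70.2%, 13.6%, 6.77%, 4.00%, 41.9% and 0.831% in turn. CCGGAAG was in 4.55% of all promoter windows of this size. Where no construction is named, the cause was not tested. Leaving out the 90 members near top-20 sites or chromosome starts, and the start windows with a shared run, were chosen after seeing the data and moved no value. No paired analysis was possible because each group has 1 library. Depth is unknown, so a summit missing from a shorter list may lie below its threshold.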

Other observations

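The members were not spread over the chromosomes as the other distal summits of old HSC were. Chromosome 17 held 5.90% of members and 3.97% of the 20893 distal summits that were not shared, and chromosome 7 held 4.32% and 6.05%. Chromosome 4 had the most members, 169, and the X chromosome had 44 (1.78% of members, against 1.31% of the others).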
